A study of Mus musculus with 35 samples.

Results

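Activator protein-1 (AP-1) is a dimeric transcription factor built from the Fos family (Fos, Fosb, Fosl1 and Fosl2) and the Jun family (Jun, Junb and Jund). Fos proteins do not pair with each other and bind DNA as partners of a Jun protein or another leucine zipper protein, whereas Jun proteins can also pair among themselves. Both families carry a basic DNA-binding region and a leucine zipper. Fos, Fosb, Jun and Junb are textbook immediate early genes, transcribed into short-lived mRNAs within minutes of a growth signal, while Jund is expressed more steadily. In fibroblasts AP-1 is known for linking growth factor signals to proliferation, matrix remodelling and the wound response. The negative elongation factor NELF, of which NELFB is one subunit, holds RNA polymerase II shortly after initiation, and immediate early genes are classical examples of paused genes.

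The rows of the 7 AP-1 genes were taken by name from count files of 24421 genes in 35 RNA-seq libraries, and all 7 passed the filter on low counts. All groups were derived from immortalized mouse embryonic fibroblasts (iMEFs) of genotype Nelfb flox/-, with 1 floxed and 1 null allele. Adenoviral Cre thus removed the last endogenous copy. The 10 population groups had 2 libraries each. They carried a pLenti empty vector (EV), wild-type NELFB (WT), or the alanine mutants MT194 (no NELFA or NELFC binding, NELFE binding kept), MT486 (no NELFE binding) or DMT (both mutations). Each was harvested 7 days after Ad-Cre, which is marked with GFP, or after Ad-GFP as control, here written EV-Cre, EV-GFP and so on. The 5 clone groups had 3 single clones each, isolated after Ad-Cre: WT, MT194 and MT486 from pLenti, and WT(N48) and the carboxyl-terminal truncation Δ-C60 (no NELFE binding) from pBabe. The sources used here do not say what N48 means. Ectopic NELFB in the pLenti lines was driven by a constitutive viral promoter, and populations may hold cells that Cre did not reach. Reads on genes numbered 17969149 to 29080007 per population library and 18413284 to 27816723 per clone library.

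The Nelfb transcript itself was read first, because it checks the labels. In CPM, the read count scaled to a common library size, Nelfb was 6.72 ± 1.78 in EV-Cre and 42.8 ± 4.65 in EV-GFP (SD, n = 2). Every other population had more than EV-GFP, and DMT-Cre had the most at 188 ± 28.1 CPM (SD, n = 2), so that the amount of ectopic transcript differed between constructs. Nelfb was also higher in DMT-Cre than in DMT-GFP (log2 fold change 1.48, SE 0.20, edgeR adjusted p = 0.000555). The same change was 0.71 in MT194 (edgeR adjusted p = 0.0637), 0.51 in MT486 (0.234) and −0.40 in WT (0.822). The part of the Nelfb level in the Cre effects below was not tested. In the clones, 2 of the 3 libraries labelled WT, clones 1 and 3, held only 200 and 306 Nelfb reads, which goes against their label. Calls that rest on the libraries labelled WT are therefore given with and without these. Fibroblast markers were abundant in every library, with a summed level of 7858 to 44449 CPM led by Fn1. The 13 markers of other cell types summed to between 0.530 and 47.3 CPM. The highest sum was in MT194 clone 3, where Sox2 alone reached 43.7 CPM.

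The genes lie on 6 chromosomes of the mm10 assembly (GENCODE M21 annotation). The Fos family members are Fos (chr12:85473890-85477273, plus strand), Fosb (chr7:19302696-19310051, minus strand), Fosl1 (chr19:5447547-5455946, plus strand) and Fosl2 (chr5:32135801-32157842, plus strand). Of the Jun family, Jun (chr4:95049034-95052222, minus strand) and Jund (chr8:70698949-70700616, plus strand) have a single exon each. Junb (chr8:84974484-84978718, minus strand) shares a chromosome with Jund. Exons of 4 members overlap a gene on the other strand. These pairs are Fosl1 with Ccdc85b over 1163 bases, Jun with Junos over 232, Junb with Prdx2 over 173 and Jund with Gm11175 over 877. Whether reads were counted by strand is not given in the sources used here, so the levels of these 4 genes are uncertain to that extent.

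The bases before the start of Fos, Fosb and Fosl2 are shown for 3 members with different Cre effects below: Fosb was called higher in EV, Fosl2 passed the adjusted p but not the fold threshold, and Fos passed neither. RefSeq promoters on GRCm38.p6 were matched for 6 of the 7 genes, all except Fosl1. The start sites of RefSeq and GENCODE differ for 4 of the 6 genes. The RefSeq start of Fosl2 lies 671 bases inside the gene as given above, so that the window shown for it is not upstream of the GENCODE start, and that of Fosb lies 6 bases inside. For Jund and Junb the RefSeq start lies before the gene as given above (−1210 and −30 bases along the gene). The Jund window is therefore far from its GENCODE start. The 250 bases upstream of the RefSeq start were searched on both strands for the AP-1 site (TGANTCA), for the cyclic AMP response element (TGACGTCA) and its core (TGACG), for the CArG box bound by serum response factor, and for the TATA box (TATAAA). The core, which is part of the full element, and the TATA box were added after the sequences were seen. Capitals mark every match.
Fos, chr12:85473640-85473889, plus strand: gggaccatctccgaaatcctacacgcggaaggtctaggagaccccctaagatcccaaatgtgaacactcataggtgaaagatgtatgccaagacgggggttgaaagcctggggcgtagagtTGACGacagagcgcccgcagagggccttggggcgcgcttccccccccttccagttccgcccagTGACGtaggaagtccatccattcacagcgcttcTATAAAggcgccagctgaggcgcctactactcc
Fosb, chr7:19310046-19310295, minus strand: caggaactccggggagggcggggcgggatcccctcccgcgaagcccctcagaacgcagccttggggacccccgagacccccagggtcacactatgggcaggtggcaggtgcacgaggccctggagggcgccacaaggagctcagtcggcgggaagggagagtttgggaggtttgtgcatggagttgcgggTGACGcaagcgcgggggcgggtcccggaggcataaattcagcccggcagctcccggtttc
Fosl2, chr5:32136222-32136471, plus strand: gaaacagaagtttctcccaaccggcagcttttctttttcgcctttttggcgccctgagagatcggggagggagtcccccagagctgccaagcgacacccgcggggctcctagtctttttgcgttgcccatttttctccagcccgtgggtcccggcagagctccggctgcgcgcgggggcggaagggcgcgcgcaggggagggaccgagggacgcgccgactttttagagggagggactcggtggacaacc
The TATA box stood 33 bases before the start of Fos, and 12.4% of 32851 promoters of the same length held it. The core of the cyclic AMP element occurred in Fos (129 and 66 bases before the start), Fosb (60 bases) and Junb (106 bases), against 17.8% of all promoters. The AP-1 site, the full cyclic AMP element and the CArG box, held by 6.75%, 1.55% and 1.47% of promoters, had no match in the windows of the 6 genes. Sites farther upstream than 250 bases were not searched. The share of G and C was 58.4% in Fos, 68.8% in Fosb and 64.4% in Fosl2, and ranged from 47.6% (Jund) to 68.8% over the 6 genes.

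Per length of transcript, Jund and Junb were the most abundant members, and Fosl2 made up most of the Fos family. Levels were compared between genes as RPKM (CPM per kilobase of exon), using the summed exon length of each gene in GENCODE M21. In the 20 populations the Fos family summed to between 43.2 and 87.3 RPKM and the Jun family to between 163 and 305 RPKM. Fosl2, whose product lacks the strong activation domain of Fos, held 52.1% to 91.7% of the Fos family's RPKM and was the leading member in all 20 populations and all 15 clones. Fos held 5.75% to 43.7% in the populations, Fosl1 1.24% to 7.26% and Fosb 0.660% to 2.89%. Within the Jun family, Jund led in 16 of 20 populations and Junb in the other 4, while Jun held 12.7% to 17.4%. The RefSeq and GENCODE starts of Jund differ, so its length, and with it its RPKM, is approximate.

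**Figure D1:**
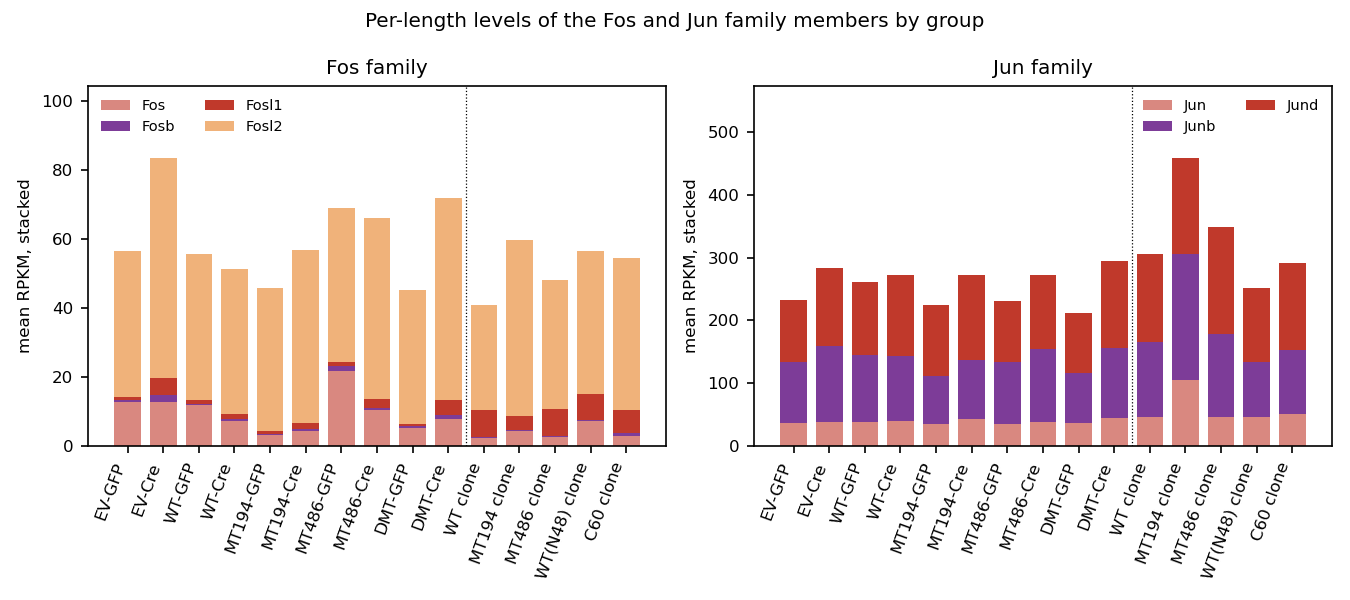
Mean RPKM of each Fos family member (left) and Jun family member (right), stacked by group (2 libraries per population group, 3 per clone group, the dotted line separating them; C60 stands for Δ-C60). Fosl2 forms most of the Fos family in every group, and the MT194 clones have the tallest Jun family bar, at 459 RPKM.

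Deleting Nelfb without rescue raised Fosl1 and Fosb. Here a gene was called where the adjusted p of edgeR was under 0.05 and the absolute log2 fold change was over 1. In EV-Cre against EV-GFP, 2 of the 7 AP-1 genes were called, both higher, where 6.52% of all 13805 tested genes were called. Fosl1, a Fos-related protein linked to cell migration and long-lasting growth factor signals, read 12.9 and 7.44 CPM in the EV-Cre replicates and 1.77 and 1.66 CPM in EV-GFP. The 2 groups did not overlap. The change was 5.92-fold (log2 fold change 2.56, SE 0.37, edgeR adjusted p = 0.000682).

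Fosb, an immediate early gene known from neurons and bone as well as fibroblasts, read 14.7 and 11.3 CPM in EV-Cre and 4.18 and 2.83 CPM in EV-GFP. Both EV-Cre libraries were above both EV-GFP libraries, and the change was 3.70-fold (log2 fold change 1.89, SE 0.58, edgeR adjusted p = 0.0490). This call stood just inside the threshold, and it was lost when any 1 of the 4 libraries was left out (adjusted p 0.107 to 0.244). Fosl2 read 626 and 608 CPM in EV-Cre and 421 and 401 CPM in EV-GFP. Its log2 fold change of 0.59 (SE 0.15, adjusted p = 0.0199) passed the adjusted p but not the fold threshold. Fosl2 is the most abundant Fos family member, and per length of transcript its level went from 42.4 ± 1.51 RPKM to 63.7 ± 1.35 RPKM (SD, n = 2).

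The Jun family and Fos were not called in EV cells. Fos, the founding member, read 32.8 and 26.98 CPM in EV-Cre and 48.8 and 10.8 CPM in EV-GFP, so that both Cre libraries lay between the 2 controls. Jun read 133 and 107 CPM after Cre and 132 and 95.8 CPM after GFP. The log2 fold changes were 0.08 for Jun (SE 0.21), 0.31 for Junb (SE 0.23) and 0.34 for Jund (SE 0.32), with adjusted p of 0.866, 0.448 and 0.561. Ccdc85b, which overlaps Fosl1, changed by 0.38 on the log2 scale (SE 0.20, adjusted p = 0.257) and was at 51.0 CPM in EV-Cre. Its part in the Fosl1 result was not tested.

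**Figure D2:**
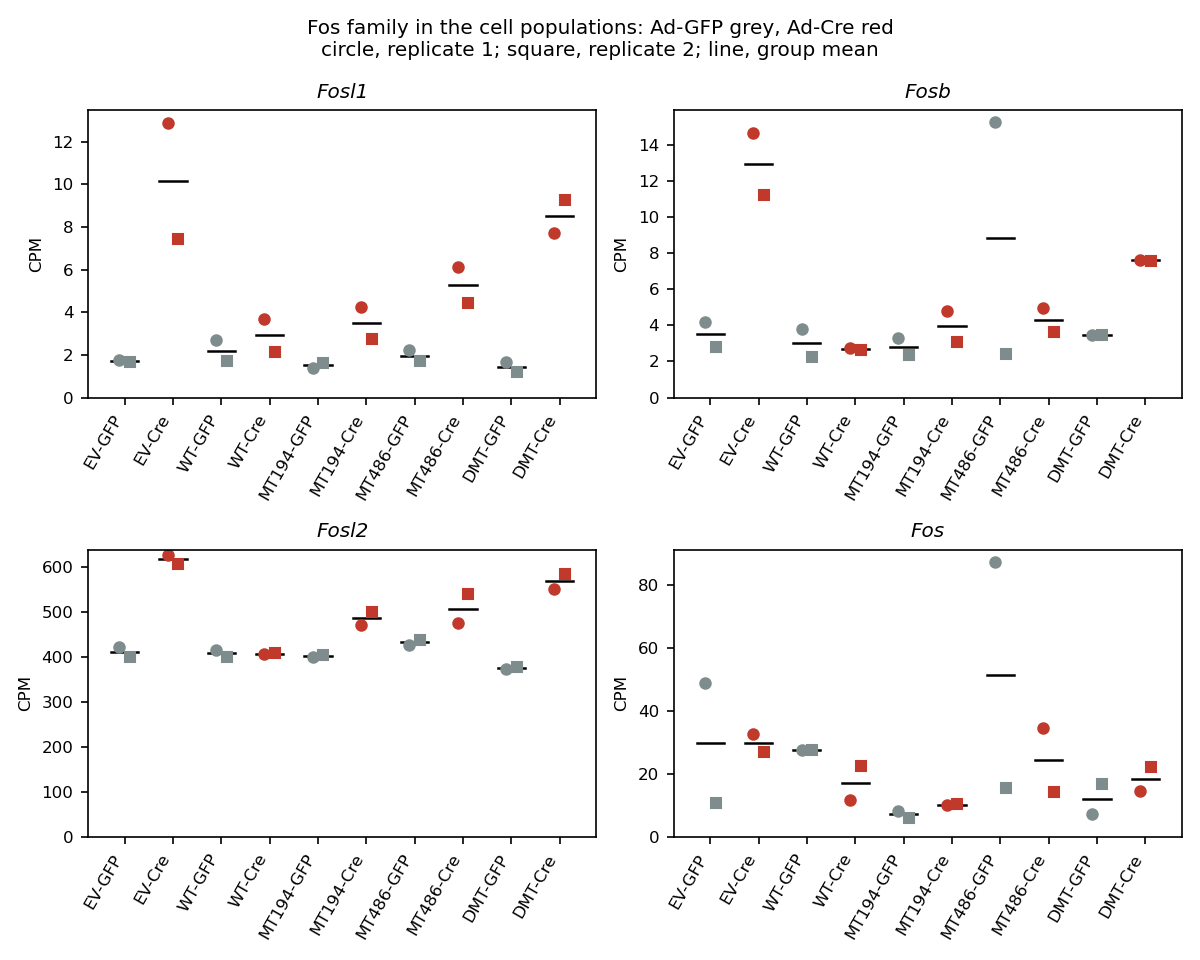
CPM of Fosl1, Fosb, Fosl2 and Fos in each of the 20 population libraries, by group (grey, Ad-GFP; red, Ad-Cre; circles replicate 1, squares replicate 2; lines, group means). Fosl1 and Fosl2 are highest in EV-Cre and DMT-Cre, their WT-Cre over WT-GFP ratios are 1.37 and 1.26 for Fosl1 and 0.979 and 1.02 for Fosl2, and the control replicates of Fos differ widely in EV and MT486.

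With wild-type NELFB put back, no AP-1 gene passed the test after Cre. In WT-Cre against WT-GFP edgeR called none of the 7, against 0.0217% of tested genes. None of the 7 had an unadjusted p under 0.05, where 6.22% of all genes had one. DESeq2 called none of the 7, and 27 of all 13805 genes. Fosl1 read 3.68 and 2.15 CPM in WT-Cre and 2.69 and 1.70 CPM in WT-GFP, and these ranges overlap. The log2 fold changes were 0.42 for Fosl1 (SE 0.37), −0.15 for Fosb (SE 0.61) and −0.0024 for Fosl2 (SE 0.15).

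WT-Cre compared directly with EV-Cre answers what rescue does to cells that all had Cre, and here the study's fold threshold of 0.5 was used. In this comparison 3 of the 7 genes were called, all lower with WT, where 7.37% of tested genes were called. Fosb was 4.80-fold lower (log2 fold change −2.26, SE 0.59, edgeR adjusted p = 0.0345). Fosl1 was 3.47-fold lower (−1.79, SE 0.35, adjusted p = 0.00862) and Fosl2 1.51-fold lower (−0.60, SE 0.15, adjusted p = 0.0277). In all 3 genes both WT-Cre libraries were below both EV-Cre libraries, which only describes genes already called and adds no support. Fosl2 was called here and not in EV-Cre against EV-GFP because the fold threshold was lower: at 0.5 it was called in both, and at 1 in neither. Without EV-Cre replicate 1 or WT-Cre replicate 2 the count was 0, and without EV-Cre replicate 2 or WT-Cre replicate 1 Fosl1 alone was called. With only these 2 groups fitted Fosb alone was called (Fosl1 adjusted p = 0.0585, Fosl2 0.213), and without the filter on low counts Fosl2 was not called (adjusted p = 0.132). The comparison shares the EV-Cre libraries with the EV comparison and is no separate support for it.

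For Fosl1 the means of the 2 single mutants after Cre lay between those of WT and EV. In MT194 cells Fosl1 read 4.24 and 2.74 CPM after Cre and 1.38 and 1.64 CPM after GFP, a log2 fold change of 1.21 (SE 0.37, edgeR adjusted p = 0.0938). In MT486 cells it read 6.13 and 4.44 CPM after Cre and 2.22 and 1.71 CPM after GFP, a log2 fold change of 1.42 (SE 0.36, adjusted p = 0.0603). The Cre and GFP libraries did not overlap in either line, but edgeR called no AP-1 gene, against 2.48% of tested genes for MT194 and 1.46% for MT486. Fosl1 was the 1 member with an unadjusted p under 0.05 in each, where 16.4% and 14.5% of all genes had one. DESeq2 called Fosl1 in both, where it called 490 (MT194) and 364 (MT486) of all 13805 genes.

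Replicates of the populations were made in 2 experiments, and same-numbered libraries deviated together in all 45 pairs of groups. With the replicate number as a block, Fosl1 was called in both single mutants (adjusted p = 0.00483 for MT194 and 0.00103 for MT486). The share of all genes called was then 5.39% and 4.24%. Against EV-Cre, with the fold threshold of 0.5, edgeR without the block called no AP-1 gene for MT194 (0.225% of tested genes) or MT486 (0.362%). DESeq2 called Fosl1 lower for MT194 (log2 fold change −1.53, adjusted p = 0.00432) and no AP-1 gene for MT486. Over all 13805 genes DESeq2 called 210 and 407. With the block, edgeR called Fosl1 and Fosb lower in both. For Fosl1 the blocked log2 fold changes were −1.52 (SE 0.23, adjusted p = 0.000454) in MT194 and −0.93 (SE 0.22, adjusted p = 0.00848) in MT486. For Fosb they were −1.73 (SE 0.45, adjusted p = 0.0298) and −1.60 (SE 0.45, adjusted p = 0.0329). All genes were called at 6.22% for MT194 and 8.95% for MT486 in those blocked fits.

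After Cre the double mutant overlapped with the empty vector in Fosl1, while its Fosb and Fosl2 readings were lower, without a call. In DMT-Cre against DMT-GFP, Fosl1 read 7.72 and 9.29 CPM after Cre and 1.66 and 1.19 CPM after GFP. The 6.01-fold change (log2 fold change 2.59, SE 0.37, edgeR adjusted p = 0.000797) was the single call among the 7 genes, against 5.31% of all tested genes. Fosl2 read 552 and 585 CPM after Cre and 374 and 378 CPM after GFP, with no overlap (log2 fold change 0.60, SE 0.15, adjusted p = 0.0209, under the fold threshold). Fosb read 7.64 and 7.57 CPM after Cre and 3.48 and 3.46 CPM after GFP. These libraries did not overlap either, but the log2 fold change of 1.13 (SE 0.57) had an adjusted p of 0.250. In EV-Cre, Fosb read 14.7 and 11.3 CPM and Fosl2 626 and 608 CPM, above both DMT-Cre libraries. DMT-Cre against EV-Cre gave no call among the 7 genes with edgeR, against 0.00724% of tested genes. DESeq2 called none of the 7 either, and 7 of all 13805 genes. None of the AP-1 genes had an unadjusted p under 0.05, where 3.24% of all genes had one. The difference in Fosl1 was −0.26 on the log2 scale (SE 0.33), which does not show that the double mutant and the empty vector act alike.

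**Figure D3:**
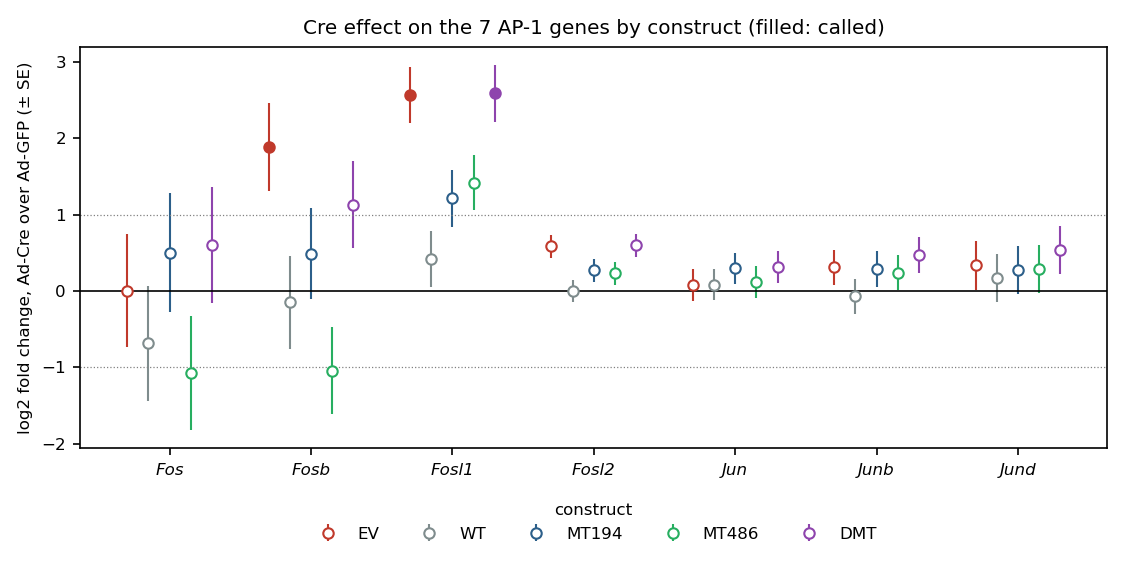
Log2 fold change of Ad-Cre over Ad-GFP (± SE of the edgeR fit) for the 7 AP-1 genes in each construct, with filled points for called genes and dotted lines at log2 fold changes of 1 and −1. Fosl1 is at 2.56 in EV and 2.59 in DMT, at 1.21 and 1.42 in the single mutants and at 0.42 in WT, and the Jun genes stay between −0.07 and 0.53.

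Whether the Cre effect itself differed between a construct and EV was tested as an interaction, called at adjusted p under 0.05 alone. For WT, Fosl1 differed by −2.14 on the log2 scale (SE 0.51, edgeR adjusted p = 0.0961), and edgeR called no AP-1 gene, against 0.681% of tested genes. Fosb, Fosl1 and Fosl2 had an unadjusted p under 0.05, as did 11.7% of all genes. DESeq2 called Fosl1 and Fosl2, and 447 of all 13805 genes. With the replicate number as a block, Fosl1 (−2.12, SE 0.38, adjusted p = 0.00137) and Fosl2 (−0.59, SE 0.12, adjusted p = 0.00394) were called, and 17.3% of all genes. For MT194, MT486 and DMT neither edgeR nor DESeq2 called an AP-1 gene. Over all tested genes edgeR called 0.00724% in each, and DESeq2 called 21, 42 and 1 of 13805. Unadjusted p were under 0.05 for 1, 2 and 0 of the 7 genes, against 3.22%, 5.18% and 1.15% of all genes. For MT486 the block added Fosb (−2.85, SE 0.66, adjusted p = 0.0447) with 2.96% of all genes called. That value rests on 1 control library: MT486-GFP replicate 1 read 15.3 CPM in Fosb and replicate 2 read 2.39 CPM.

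The order of the 4 highest groups was the same for Fosl1 and Fosl2. For Fosl1 it ran from EV-Cre (10.2 CPM) through DMT-Cre (8.50), MT486-Cre (5.28), MT194-Cre (3.49) and WT-Cre (2.92) to the 5 Ad-GFP groups (1.43 to 2.20). Neighbours in this order overlapped except DMT-Cre with MT486-Cre, MT486-Cre with MT194-Cre, and EV-GFP with MT194-GFP. Fosl2 began with the same 4 groups, from EV-Cre (617 CPM) and DMT-Cre (568) to MT486-Cre (508) and MT194-Cre (486), while WT-Cre (408) lay among the controls. For Jun, every group overlapped with the next in the order, from DMT-Cre (143 CPM) to MT194-GFP (110 CPM). Across the 20 populations the log2 CPM of Fosl1 and Fosl2 had a Pearson r of 0.91, and Jun and Jund one of 0.90. These libraries share groups and 2 experiments, so the values are descriptions.

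Over the 10 Ad-GFP libraries Fos had a wide range, from 6.16 to 87.2 CPM. Fos read 87.2 and 15.5 CPM in the MT486-GFP replicates and 48.8 and 10.8 CPM in EV-GFP, yet 27.6 and 27.7 CPM in WT-GFP. In reads these were 1764 and 273 in MT486-GFP, and the cause of the difference was not tested. Egr1, another immediate early gene, was also higher in replicate 1 of MT486-GFP (207 against 125 CPM) and of EV-GFP (160 against 85.0 CPM). A test for any difference among the 5 Ad-GFP groups called none of the 7 genes and 0.00724% of tested genes. DESeq2 called none of the 7 either, and 48 of all 13805 genes. The unadjusted p, from the same edgeR fit, was 0.0249 for Fos and 0.0489 for Fosb, and the adjusted p was 1 for both. Over all genes, 2.08% had an unadjusted p under 0.05.

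Replicate 2 was lower than replicate 1 for 4 members across the populations. In the blocked fit the log2 difference was −0.40 for Jund (SE 0.08, edgeR adjusted p = 0.000284), −0.39 for Fosl1 (SE 0.12, adjusted p = 0.00660), −0.20 for Jun (SE 0.06, adjusted p = 0.00758) and −0.59 for Fosb (SE 0.22, adjusted p = 0.0325). That is 4 of the 7 genes lower and none higher at an adjusted p under 0.05, where 36.6% of all tested genes were lower and 34.9% higher in replicate 2. None passed the fold threshold of 1 as well, which 1.09% of tested genes did. At the same adjusted p, 6 of 10 tested fibroblast markers were higher in replicate 2 and 3 lower. Of 20 tested genes known as AP-1 targets, 14 were higher and 2 lower. Reads assigned to no gene were also more frequent in replicate 2 in every group except DMT-Cre, such as 21.3% against 14.8% in MT486-GFP. The part of these differences in the AP-1 values was not tested.

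The genes whose log2 CPM ran most like each member over the 20 populations were found by Pearson r, 3 for each. Fosl1 was nearest to Ccrn4l (r = 0.97), Maff (0.97) and Csrnp1 (0.97), and Fosl2 to Plk2 (0.97), Ccdc137 (0.97) and Smad7 (0.96). Fos was nearest to Egr1 (0.80) and Junb to Ier2 (0.89), both immediate early genes. Fosb was nearest to Cep83os (0.86), while Jun and Jund shared Mrpl43 as nearest gene, at 0.86 and 0.95.

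Of 19 other immediate early genes, some were called higher after Cre in every line except WT. In EV-Cre against EV-GFP, 11 were called higher and none lower, against 6.52% of all tested genes called in either direction, with a median log2 fold change of 1.24 against 0.0004 over all tested genes. The 4 with the smallest p were Ier5 (1.43, adjusted p = 3.53e-05), the neuronal effector gene Arc (2.70, adjusted p = 0.000117), the small Maf protein gene Maff (2.42, adjusted p = 0.000167) and the MAP kinase phosphatase gene Dusp1 (1.45, adjusted p = 0.000572). Egr1 (0.51) and Ier2 (0.67), which run with Fos and Junb, were not called. The count was 11 higher for DMT, 5 for MT194, 3 for MT486 and 0 for WT, with none lower in any. All genes were called at 5.31%, 2.48%, 1.46% and 0.0217% in these comparisons. The medians of the log2 fold change were 1.29, 0.86, 0.73 and 0.22. In WT-Cre against EV-Cre 9 of the 19 were called lower, against 7.37% of all genes. With the replicate block the counts were 7 higher for MT194 (5.39% of all genes), 6 higher for MT486 (4.24%) and 1 higher for WT (0.869%). For WT-Cre against EV-Cre the blocked count was 15 lower (23.0%).

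Of 20 tested genes known as AP-1 targets in other systems, 7 were called higher after Cre in EV cells and none lower (median log2 fold change 0.83), where 6.52% of all genes were called. Among them were Hbegf (3.04, adjusted p = 0.000464) and Ereg (2.38, adjusted p = 0.000680), which encode ligands of the EGF receptor family, and Ptgs2 (2.38, adjusted p = 0.000847), the inducible cyclooxygenase gene. The matrix metalloproteinases Mmp3 (0.49), Mmp9 (−0.76) and Mmp13 (−0.09) and the cyclin gene Ccnd1 (0.61) were not called. DMT had 7 called higher and 1, Mmp9 (−2.33), lower, against 5.31% of all genes. MT194 had 5 higher (2.48%), MT486 4 higher (1.46%) and WT none (0.0217%), and WT-Cre against EV-Cre had 6 lower (7.37%). With the replicate block EV had 7 higher and 1 lower (9.74% of all genes) and DMT 11 higher and 1 lower (8.80%). MT194 had 7 higher (5.39%) and MT486 6 higher and 1 lower (4.24%) with the block. WT then had 1 in each direction (0.869%), and WT-Cre against EV-Cre 1 higher and 9 lower (23.0%).

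Of the other basic leucine zipper proteins that pair with AP-1 members, 12 of 13 were tested, and in EV cells 3 were called higher and 4 lower, against 6.52% of all genes. Maff, Mafk (1.62, adjusted p = 0.00189) and the stress-response gene Atf3 (2.15, adjusted p = 0.00652) were called higher. Batf3 (−1.50, adjusted p = 0.00448), Batf (−1.83) and Maf (−1.17) were among those called lower. DMT had 3 called in each direction (5.31% of all genes), MT194 1 higher and 3 lower (2.48%), MT486 1 lower (1.46%) and WT none (0.0217%). With the replicate block MT486 had 1 in each direction (4.24%). WT-Cre against EV-Cre had 2 higher, Batf and Batf3, and 4 lower, Atf3, Maff, Mafg and Mafk (7.37%), and with the block 4 in each direction (23.0%). Atf3 and Maff stand in both this list and that of the immediate early genes.

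Transcripts of the upstream pathway gave no call in the Cre comparisons without the block. None of 20 MAP kinase pathway genes was called in any of the 5 Cre comparisons, and in EV the median log2 fold change was −0.01. In EV 4 kinase genes passed the adjusted p but not the fold threshold. Of all 13805 genes, 887 higher and 904 lower passed the adjusted p, and 900 of these also passed the fold threshold. Map2k1, which encodes MEK1 (0.97, adjusted p = 0.0256), and the JNK gene Mapk9 (0.53, adjusted p = 0.0140) were higher, and Map2k7, which encodes a kinase of JNK (−0.67, adjusted p = 0.0116), and the ERK5 gene Mapk7 (−0.54, adjusted p = 0.00732) were lower. With the replicate block 1 kinase gene was called lower in EV, where 9.74% of all genes were called. In WT-Cre against EV-Cre, at the lower fold threshold, Map2k6 (1.62) was called higher and Mapk8 (−0.50) lower, 2 of 20 against 7.37% of all genes. With the block 1 kinase gene was higher and 2 lower there, and 1 of the 11 regulators below was lower, against 23.0% of all genes. None of 11 genes for SRF, TCF and CREB regulators and none of 8 for AU-rich element binding proteins, which act on short-lived mRNAs, was called in these 5 comparisons, although in EV the coactivator genes Mkl1 (−0.52, adjusted p = 0.0146) and Crtc1 (−0.47, adjusted p = 0.00691) passed the adjusted p alone. Of 10 tested fibroblast markers, S100a4 was called lower in EV (−1.47, adjusted p = 0.00171), against 6.52% of all genes, and the list median was −0.57. With the block 2 were lower in EV (9.74% of all genes). In WT-Cre against EV-Cre 1 was called higher (7.37%), again S100a4, and 5 with the block (23.0%). The part of these markers in the AP-1 results was not tested. Of the markers of other cell types only Cdh1 and Nanog passed the filter in the populations, and neither was called except 1 of them, lower, in MT194 with the block. In bulk RNA, fewer cells of a type and less RNA per cell cannot be told apart.

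**Figure D4:**
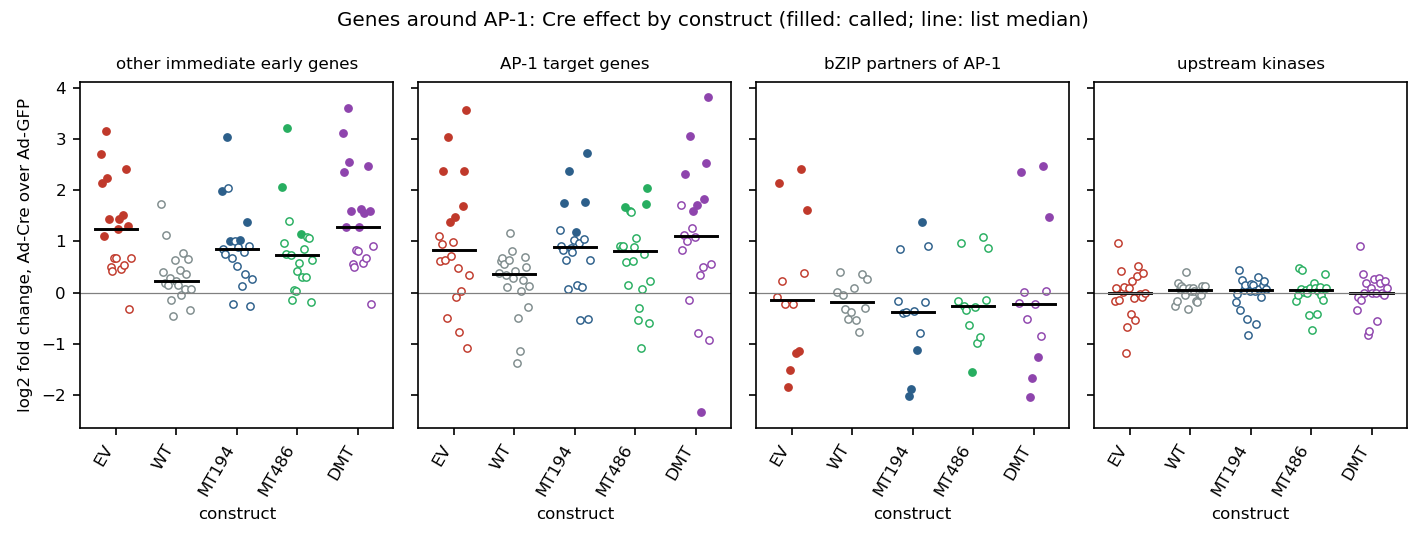
Log2 fold change of Ad-Cre over Ad-GFP for single genes of 4 lists, by construct (filled, called; black line, list median). The medians of the immediate early genes are 1.24 in EV and 1.29 in DMT, 0.86 and 0.73 in the single mutants and 0.22 in WT, and the median of the kinases is −0.01 in EV.

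In the single clones Jun, Junb and Fosb differed between groups, and Fosl1 was not called. A test for any difference among the 5 clone groups called 3 of the 7 genes, Junb (edgeR adjusted p = 0.0215), Fosb (adjusted p = 0.0230) and Jun (adjusted p = 0.0361), where 11.6% of 13223 tested genes were called. With both low-Nelfb libraries labelled WT left out none was called, and without MT194 clone 1 none was either. Without any 1 of the 3 libraries labelled WT, Junb alone was called. Without MT194 clone 3, the library with the highest Sox2 level, Fosb alone was called. The part of that library's other differences in these results was not tested.

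Jun, the strongest activator of its family, read 378, 248 and 375 CPM in the MT194 clones and 197, 163 and 82.7 CPM in the WT(N48) clones. All 3 MT194 clones were above every other clone, the next being Δ-C60 clone 1 at 210 CPM. Against WT(N48) the change was 2.26-fold (log2 fold change 1.18, SE 0.30, edgeR adjusted p = 0.0379).

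Junb, a weaker activator often described as opposing Jun in proliferation, read 464, 358 and 573 CPM in the MT194 clones and 159, 242 and 209 CPM in WT(N48). These groups did not overlap, and the change was 2.29-fold (log2 fold change 1.19, SE 0.22, adjusted p = 0.0137). Jun and Junb were the 2 members called in this comparison, against 3.24% of tested genes. With only these 2 groups fitted neither was called (edgeR adjusted p = 0.101 for Jun and 0.0618 for Junb). The Jun call was lost when any of 5 libraries, all except MT194 clone 2, was left out, either by its adjusted p (0.0819 to 0.120) or, without WT(N48) clone 3, by its log2 fold change (0.90). Junb lost its call without MT194 clone 1 (adjusted p = 0.0533) or WT(N48) clone 1 (adjusted p = 0.0838). Prdx2, which overlaps Junb, read 347 ± 63.6 CPM in the MT194 clones and 227 ± 55.8 CPM in WT(N48) (SD, n = 3), and its part in the Junb result was not tested. The MT194 and WT(N48) clones also differ in vector.

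Against the libraries labelled WT, Fosb was the single member called in the MT194 clones by edgeR fitted to all clones, where 1.47% of tested genes were called. Fosb read 3.72, 2.61 and 3.25 CPM in MT194 and 0.515, 0.871 and 0.812 CPM in the libraries labelled WT, with no overlap. The change was 4.32-fold (log2 fold change 2.11, SE 0.44, edgeR adjusted p = 0.0320), from 55 to 76 reads against 10 to 21 reads. The call was lost when any 1 of 5 libraries, all except MT194 clone 3, was left out (adjusted p 0.0521 to 0.124). Without the 2 low-Nelfb libraries the change was 1.85 on the log2 scale (adjusted p = 0.353). In the edgeR fit of all clones Jun (1.17, SE 0.30, adjusted p = 0.0512) and Junb (0.77, SE 0.22, adjusted p = 0.0691) were not called. Jun was called by DESeq2 (1.17, adjusted p = 0.00468) and by edgeR with only the 2 groups fitted (1.17, adjusted p = 0.0315). Without the 2 low-Nelfb libraries Jun and Junb were at 1.37 and 0.72.

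The other 4 clone comparisons called no AP-1 gene with edgeR. MT486 against the libraries labelled WT had 0% of all tested genes called, with 1176 at an unadjusted p under 0.05 and 113 called by DESeq2. Δ-C60 against WT(N48) had 0% as well, with 1540 at an unadjusted p under 0.05 and 136 called by DESeq2. The share was 1.47% for WT(N48) against the libraries labelled WT, and 0.272% for MT486 against WT(N48). In the former DESeq2 called Fosb, which edgeR put at 1.44 on the log2 scale (SE 0.43, adjusted p = 0.0898) and, without the 2 low-Nelfb libraries, at 1.18 (SE 0.67, adjusted p = 0.672). Unadjusted p were under 0.05 for 1 AP-1 gene in MT486 and 2 in WT(N48) against the libraries labelled WT, where 8.89% and 21.0% of all genes had one. Against WT(N48) it was 2 in Δ-C60 and 3 in MT486, where 11.6% and 15.1% of all genes had one. Δ-C60 and MT486 both lack NELFE binding. In the Δ-C60 clones Fosb read 2.97, 3.56 and 5.92 CPM against 2.33, 2.50 and 1.19 CPM in WT(N48), with no overlap (log2 fold change 1.05, SE 0.42, adjusted p = 0.360).

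Fosl1, the member called after Cre in both EV and DMT populations, varied within the clone groups. It read 13.7, 22.6 and 11.7 CPM in the libraries labelled WT, 8.96, 4.41 and 11.7 CPM in MT194 and 23.9, 16.9 and 4.90 CPM in WT(N48). The 3 MT194 clones lay below all MT486 clones and below all libraries labelled WT, and all other pairs of clone groups overlapped. The edgeR adjusted p for any difference was 0.509. All 15 clones, at 4.41 to 23.9 CPM, were above the 10 Ad-GFP populations, at 1.19 to 2.69 CPM. Clones and populations were normalized separately and are different material, so this difference was not tested. Fos ranged from 2.40 CPM in Δ-C60 clone 2 to 30.9 CPM in WT(N48) clone 3, and the WT(N48) clones alone spanned 6.69 to 30.9 CPM.

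In the clones the test for any difference called 4 of 19 immediate early genes, 3 of 20 targets, 3 of 20 kinase genes, 3 of 11 tested leucine zipper partners, 1 of 11 SRF, TCF and CREB regulators and 2 of 10 fibroblast markers, against 11.6% of all genes. Without the 2 low-Nelfb libraries 1 immediate early gene and none of the other lists' genes was called, against 1.27% of all genes. WT(N48) against the libraries labelled WT had 1 of 19 immediate early genes higher, Klf6 (1.24), and 1 of 20 kinase genes lower, Rps6ka1 (−1.10), against 1.47% of all genes. Without the 2 low-Nelfb libraries these were 1.45 (edgeR adjusted p = 0.569) and −1.40 (adjusted p = 0.463), and neither was called. MT194 against WT(N48), with 3.24% of all genes called, had Klf6 (−1.48), the stress-response gene Atf4 (−1.16) and Hbegf (−2.05) lower, while Jun and Junb were higher. The median log2 fold change there was −0.63 over the other immediate early genes and −0.85 over the AP-1 targets, against 0.0006 over all tested genes.

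**Figure D5:**
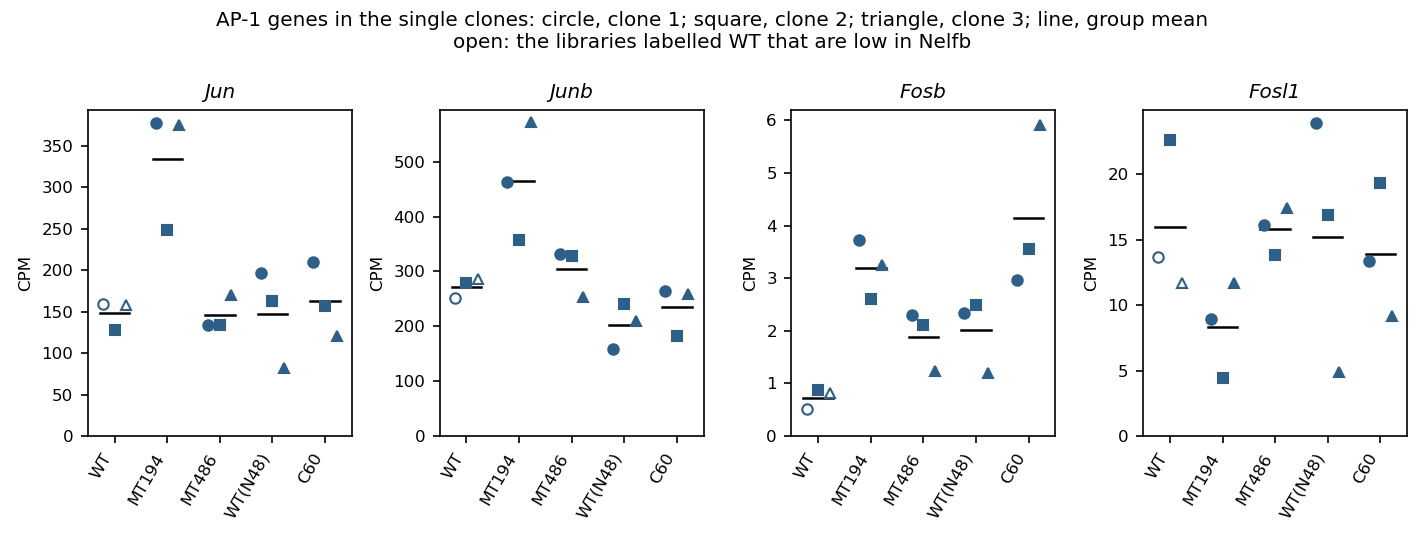
CPM of Jun, Junb, Fosb and Fosl1 in each of the 15 single clones, by group (circle, square and triangle, clones 1, 2 and 3; lines, group means; open symbols, the 2 libraries labelled WT that are low in Nelfb; C60 stands for Δ-C60). The 3 MT194 clones have the 3 highest Jun and the 3 highest Junb values, and the MT194 clones lie below the MT486 clones and the libraries labelled WT in Fosl1.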

How the data were processed

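Each library was deposited as a table of raw read counts per gene. The authors made these counts from 50 base single reads of poly(A) RNA, aligned to mm10 with Bowtie2, sorted with SAMtools and counted per gene with HTSeq, skipping alignments with a mapping quality under 30. Tool versions and whether counting used strand are not given in the sources used here. The deposited counts also hold reads assigned to no gene, which were left out (11.7% to 21.3% for populations, 9.14% to 12.0% for clones).

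The counts were tested with edgeR 4.0.16 in R 4.3.3 (quasi-likelihood, robust, TMM normalization, filterByExpr, 1 mean per group), separately in 20 populations (13805 genes) and 15 clones (13223 genes), with Benjamini-Hochberg adjustment over all tested genes. The reported fit had no replicate block. The populations came from 2 experiments, and same-numbered libraries were taken to share an experiment. Their deviations correlated in 45 of 45 pairs of groups (r 0.420 to 0.730), so the blocked value is given where it changes a call. Clone numbers only name clones. The p-values rest on the spread between libraries of a group (2 experiments or 3 clones), estimated over all fitted groups together. In the blocked fit the shift between replicate numbers is taken out of that spread. CPM used TMM library sizes, and log2 CPM a prior count of 2.

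The members, gene lists and rules were chosen with earlier results of these data known. Named genes were the 7 members, Nelfb, up to 4 called genes of each list with the smallest p, and the 3 genes nearest to each member. Some genes that the rule would name are not reported here. Genes outside that rule, such as list members that were not called, were named after their values were seen. The tests across genes were tried on simulated data first. Alternatives were DESeq2 1.42.0, its size factors, no filter, another fold threshold, the compared groups alone, the block, and leaving out libraries.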

Additional observations from a re-analysis of the deposited data

Results flagged for a closer look

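In 3 cases the Cre effect on an AP-1 gene differed from that in EV cells in the blocked edgeR fit, in which the replicate number is a term, although not in the fit without it. All genes were called at 17.3% in the blocked comparison of WT with EV and at 2.96% in that of MT486 with EV, against 0.681% and 0.00724% without the block. The Cre effect on Fosl1 was smaller with WT NELFB by −2.12 on the log2 scale (SE 0.38, adjusted p = 0.00137), with WT-Cre over WT-GFP ratios of 1.37 and 1.26 and EV ratios of 7.28 and 4.49. The Cre effect on Fosl2 was smaller with WT NELFB by −0.59 (SE 0.12, adjusted p = 0.00394), with ratios of 0.979 and 1.02 against 1.49 and 1.52. The Cre effect on Fosb was smaller with MT486 by −2.85 (SE 0.66, adjusted p = 0.0447), with ratios of 0.325 and 1.52 against 3.51 and 3.98, so that the 2 MT486 replicates moved in opposite directions.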

How the results depend on the processing

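The count of called AP-1 genes was recomputed under each alternative, and 8 of 22 counts stayed within 1.5 times throughout: any difference among the Ad-GFP groups, WT-Cre against WT-GFP, DMT-Cre against EV-Cre, the interactions for MT194 and DMT, MT486 clones against either WT group, and Δ-C60 against WT(N48), all at 0. With DESeq2 the count was 1 (Fosl1) for MT194 and for MT486 against their controls and for MT194-Cre against EV-Cre. It was 2 (Fosl1, Fosl2) for the WT interaction, 2 (Fosb, Jun) for MT194 against WT clones and 1 (Fosb) for WT(N48) against WT clones. Of all 13805 genes in the populations, DESeq2 called 490 for MT194, 364 for MT486, 210 for MT194-Cre against EV-Cre and 447 for the WT interaction. The edgeR counts there were 343, 201, 31 and 94. DESeq2 size factors left 1 call in EV-Cre against EV-GFP (Fosb at adjusted p = 0.0503). A fold threshold of 0.5 gave 3 calls for EV and 2 for DMT, Fosl2 being added in both, and 1 for replicate 2 against replicate 1. Of all 13805 genes it called 1626 for EV and 1369 for DMT, against 900 and 733 at the threshold of 1. A threshold of 1 left 2 calls, without Fosl2, for WT-Cre against EV-Cre, where 559 of all genes were called, against 1018 at 0.5. With only the compared groups fitted the count was 1 for WT-Cre against EV-Cre (Fosb, with Fosl1 at adjusted p = 0.0585 and Fosl2 at 0.213). It was 2 (Fosb, Jun) for MT194 against WT clones and 0 for MT194 against WT(N48) clones (Jun at adjusted p = 0.101, Junb at 0.0618). Without the filter on low counts Fosl2 was not called in WT-Cre against EV-Cre (adjusted p = 0.132).

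With the replicate block the counts were 1 for MT194 and 1 for MT486 against their controls, 2 for each against EV-Cre, 2 for the WT interaction and 1 for the MT486 interaction. In the clones, where numbers only name clones and 1 of 10 pairs of groups had a correlation over 0.1, the block gave 0 for MT194 against WT, 1 for MT194 against WT(N48) and 1 for any difference. No other count of calls changed with the block. With both low-Nelfb libraries labelled WT left out, the count was 0 for MT194 against WT clones and 0 for any difference.

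With 1 library left out at a time, the counts ranged from 1 to 1 for EV, 0 to 1 for MT486, 0 to 1 for WT-Cre against EV-Cre, 0 to 1 for the MT486 interaction, 0 to 1 for MT194 against WT clones, 0 to 1 for WT(N48) against WT clones, 0 to 2 for MT194 against WT(N48) and 0 to 4 for any difference among clones. Where an arm kept 1 library, it was assumed to vary like the other groups. No called member changed sign. Of members not called, some did. Fos in EV was −0.0054 without the filter and ranged from −0.71 to 1.46 with 1 library left out, Jun in EV from −0.14 to 0.32, Fosb in WT from −0.49 to 0.27, Fosl1 in WT from −0.027 to 0.78 and Fosl2 in WT from −0.031 to 0.024. In MT486, Fos ranged from −1.85 to 0.66 and Fosb from −1.83 to 0.85, both highest without control replicate 1, and Jun from −0.19 to 0.51, Junb from −0.095 to 0.68 and Jund from −0.15 to 0.91, all lowest without control replicate 2. Fosl1 in DMT-Cre against EV-Cre ranged from −0.60 to 0.20. The cause was not tested. Over all genes, the reported test called 900 for EV, 343 for MT194, 201 for MT486 and 733 for DMT. The block gave 1344, 744, 586 and 1215, and fitting only the compared groups gave 239, 0, 5 and 467. Depth limits Fosb, at 10 to 326 reads per library, and Fosl1, at 29 to 544, more than the other members, which had at least 64 reads.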
